A study of Mus musculus with 6 samples.

Results

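Transcripts of 9 genes that define B cells, Ms4a1, Cd79a, Cd79b, Pax5, Ebf1, Cr2, Cd22, Cd72 and Blk, were followed in RNA of sorted CD4+ T cells. Each had 1 probe set carrying its symbol alone in the platform annotation, so that 9 of the 23410 probe sets with a gene symbol, among 35556 deposited, make up the group; no probe set listed a member beside other genes. The cells were CD4+TCRβ+ axillary, brachial and inguinal lymph node cells of unimmunized females aged 8 weeks from mixed sex litters, all of the C57BL/6J background. In B6 the fathers carried the C57BL/6J ChrY, and in B6-ChrYSJL they carried the ChrY of SJL, which daughters do not inherit. Each strain gave 3 pools of 5 mice, hybridized to 1 Affymetrix Mouse Gene 1.0 ST array per pool, and single animals cannot be seen within a pool. The sort used antibodies to CD4 and the TCRβ chain and a dye for dead cells, and none to a B cell protein. The comparison asks whether resting T helper cells of daughters differ with the ChrY of the father.

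B cells recognize antigen through membrane immunoglobulin, which signals only with the CD79A and CD79B chains at its side. The kinase BLK and its relatives phosphorylate these chains, complement receptor 2 (Cr2) lowers the threshold for activation, and CD22 and CD72 carry inhibitory motifs that raise it. EBF1 and PAX5 are the transcription factors that commit precursors to the B lineage and hold them there. MS4A1 is CD20, the surface protein by which B cells are depleted in therapy. Lymph nodes are rich in B cells, which lie in follicles beside the T cell zone.

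The arrays were alike, with Pearson's r of 0.995 to 0.996 between them across probe sets and medians of 6.41 to 6.44. The T cell identity of the pools was plain from Cd3e and Cd4, which averaged 12.5 and 11.5 in both strains on the log2 scale. As a background level served 5.98, below which 95% of 1210 probe sets for odorant and pheromone receptors fell in their mean over the arrays, and 61.6% of tested probe sets exceeded it. By this mark 6 of the 9 B cell genes averaged above background, but only Cd72, Cd79b and Pax5 exceeded the matching level of every single array. Cd79a and Cd22 exceeded it on 4 of 6 arrays each and Blk on 2. Ms4a1, Ebf1 and Cr2 did not exceed it on any array, so the size of their differences is uncertain. With the 99th percentile as the mark, 2 members were left above background.

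The promoters of 6 members were found in the RefSeq table for GRCm38.p6. The 250 bases before the start of Cd79a, Cd22 and Cd72 are shown because Cd79a and Cd22 had their highest value in the pool in which Cd72 had its lowest. Capitals mark the palindrome that EBF1 recognizes (its inner 2 bases free, matched as TCCCTGGGGA in Cd22), GAGGAA, the box of the factor PU.1, and CAGGTG, an E box bound by E2A, each searched on both strands.
Cd79a, chr7:24897247-24897496, plus strand: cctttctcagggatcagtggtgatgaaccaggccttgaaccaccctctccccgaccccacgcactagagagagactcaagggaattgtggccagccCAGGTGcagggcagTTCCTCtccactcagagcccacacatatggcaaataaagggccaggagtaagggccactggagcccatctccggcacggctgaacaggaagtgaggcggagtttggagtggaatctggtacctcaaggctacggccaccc
Cd22, chr7:30879029-30879278, minus strand: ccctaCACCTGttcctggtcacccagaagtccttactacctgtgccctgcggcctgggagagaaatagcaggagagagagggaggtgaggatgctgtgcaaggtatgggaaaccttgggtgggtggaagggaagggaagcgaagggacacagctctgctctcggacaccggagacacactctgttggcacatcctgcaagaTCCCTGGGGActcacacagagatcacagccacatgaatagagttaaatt
Cd72, chr4:43454627-43454876, minus strand: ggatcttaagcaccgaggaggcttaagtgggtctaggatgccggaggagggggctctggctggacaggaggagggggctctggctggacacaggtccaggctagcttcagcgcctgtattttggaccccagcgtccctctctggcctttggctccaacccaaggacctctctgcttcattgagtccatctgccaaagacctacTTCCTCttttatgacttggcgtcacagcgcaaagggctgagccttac
The palindrome was found in Cd22 alone among these 6 genes, from 49 bases before its start, and in 0.779% of all 32851 promoters of this length. The E box was found in Cd79a, Cd22 and Cr2 and in 17.2% of all promoters, and the PU.1 box in Cd79a, Cd72 and 1 of the listed promoters of Ebf1 and in 23.3%. The octamer ATGCAAAT, found in 1.6% of all promoters, was not in these windows. No match overlapped another. A match is a description of the letters and not evidence of binding.

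No B cell gene passed an FDR of 0.05 over all tested probe sets in limma, beside 0.0171% of all tested probe sets (0.00427% higher and 0.0128% lower), and the smallest adjusted p was 0.421 (Cd72). At an unadjusted p under 0.05 Ebf1 was higher in B6-ChrYSJL and Cd72 was lower, 1 of 9 in each direction, beside 4.69% and 5.92% of all tested probe sets and 10.6% in either direction. The same 2 were the genes whose pools did not overlap between strains, which held for 7.68% of probe sets in the higher and 9.42% in the lower direction, 17.1% in all. With 9 genes, 1 such gene in a direction is no result about the group. The difference was above 0 for 7 of the 9 genes, beside 48.9% of all probe sets, and its median was 0.16, beside −0.0036 over all. Without B6-ChrYSJL replicate 3 the median was 0.04. In bulk RNA, fewer cells of a type and less RNA per cell cannot be told apart.

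Cd79a, a receptor chain, had the widest range over the pools of the 9 genes. Cd79a was 5.74, 6.12 and 6.07 in B6 replicates 1 to 3 and 5.71, 6.15 and 6.75 in B6-ChrYSJL replicates 1 to 3. B6-ChrYSJL replicate 3 was the highest of the 6 pools and replicate 1 of the same strain the lowest, a distance of 1.04 on the log2 scale or 2.06-fold. The strain difference of 0.23 (standard error 0.23, adjusted p = 0.762 from limma) was smaller than this spread, and it was −0.045 without B6-ChrYSJL replicate 3 and 0.47 without B6-ChrYSJL replicate 1.

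Cd79b, the partner chain, was 7.21, 7.38 and 7.42 in the B6 pools and 7.22, 7.61 and 7.78 in the B6-ChrYSJL pools, all clear of background. B6-ChrYSJL replicate 1 lay among the B6 pools, while replicates 2 and 3 lay above all of them. The difference was 0.20 (standard error 0.14, adjusted p = 0.635), with 0.08 without B6-ChrYSJL replicate 3 and 0.36 without B6-ChrYSJL replicate 1.

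Ms4a1 was 4.75, 4.92 and 4.90 in the B6 pools and 4.91, 5.14 and 5.64 in the B6-ChrYSJL pools. As with Cd79b, replicates 2 and 3 of B6-ChrYSJL exceeded every B6 pool, and replicate 1 did not. Its difference of 0.37 was the largest of the 9 (standard error 0.16, 95% interval −0.004 to 0.75, unadjusted p = 0.052 and adjusted p = 0.475 in limma). It was 0.17 without B6-ChrYSJL replicate 3, and since all 6 values lay below background the size is open to doubt.

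**Figure D1:**
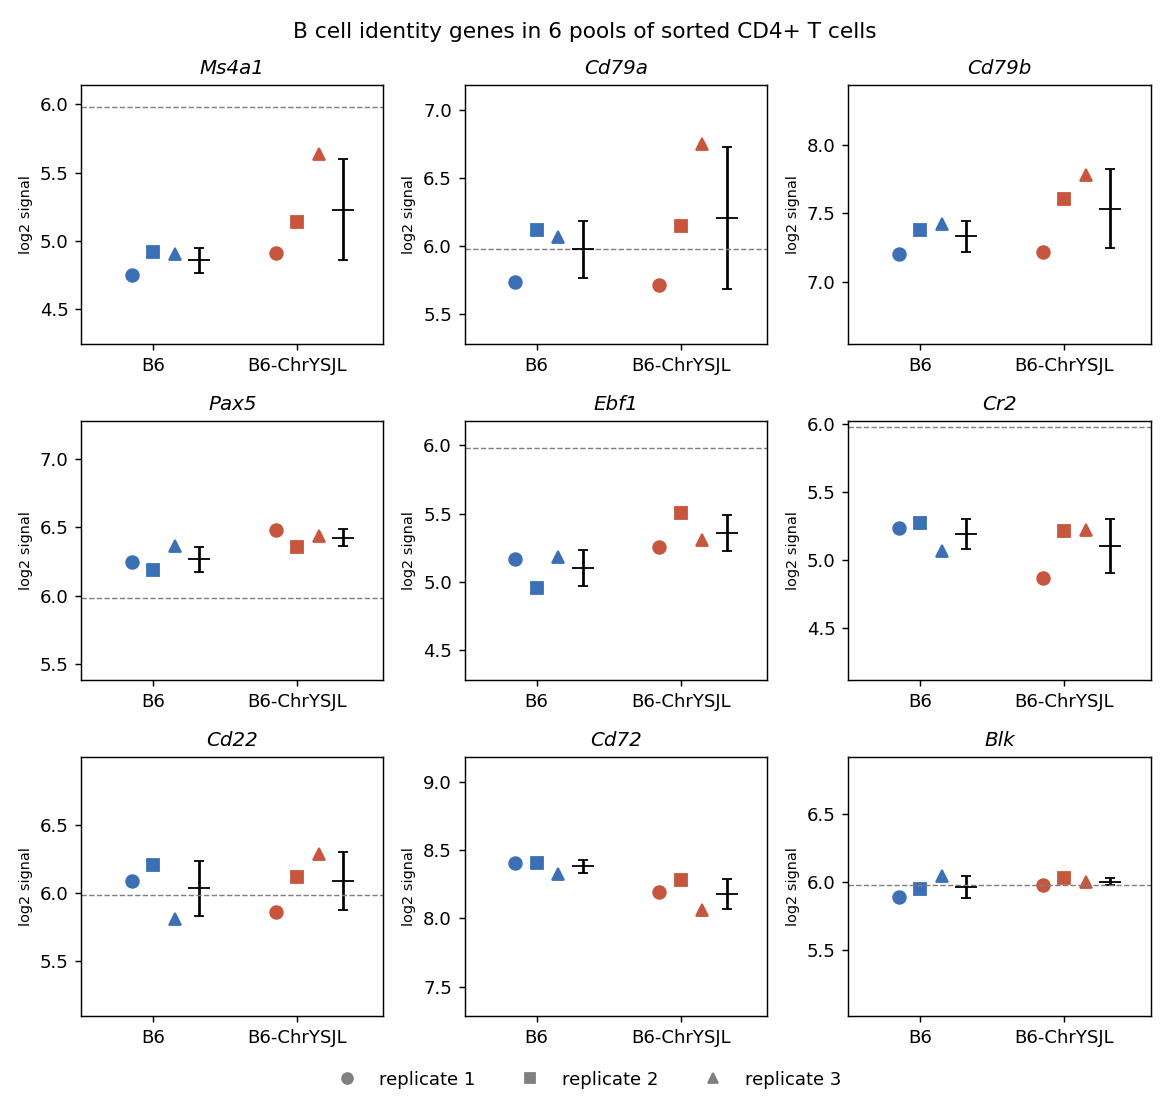
Log2 signal (vertical axes) of each of the 9 genes in the B6 (blue) and B6-ChrYSJL (red) pools, with circles, squares and triangles for replicates 1, 2 and 3, a black mark and bar for the mean and SD (n = 3 pools), and a dashed line for the background level of 5.98 where it falls within the panel; all panels span the same range at different heights. The red triangle of B6-ChrYSJL replicate 3 stands highest for Ms4a1, Cd79a, Cd79b and Cd22 and lowest for Cd72.

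The spread of these 3 genes was uneven between the strains. The SD over the B6-ChrYSJL pools was 0.52 for Cd79a, 0.37 for Ms4a1 and 0.29 for Cd79b, against 0.21, 0.10 and 0.11 over the B6 pools (n = 3 pools each), and the median SD of all tested probe sets was 0.09 in either strain. Within B6-ChrYSJL these values stood at percentiles 99.9, 99.4 and 98.0 of all probe sets; within B6 the percentiles were 91.2, 52.0 and 62.1. Whether the spread differed between strains was not tested. The genes also kept nearly the same order of pools. Over the 6 pools, Pearson's r was 0.94 between Cd79a and Cd79b (exact permutation p = 0.00556, Spearman's rho 0.89, exact permutation p = 0.0333), 0.92 between Ms4a1 and Cd79a (exact permutation p = 0.0125, rho 0.83, exact permutation p = 0.0583) and 0.92 between Ms4a1 and Cd79b (exact permutation p = 0.00694, rho 0.83, exact permutation p = 0.0583). Of 36 pairs of members, none passed 0.05 after Benjamini-Hochberg adjustment (0.125, 0.150 and 0.125 for r and 0.42 for each rho of these 3 pairs), and 6 pools cannot give a two-sided p below 0.00278. Without the 2 pools farthest from the median of the first gene, r was 0.85, 0.55 and 0.59. Leaving out the outermost pools also narrows the range, so this fall cannot show what the relations rest on. Within B6 and within B6-ChrYSJL (n = 3 pools each), r was 0.95 and 0.95 between Cd79a and Cd79b. It was 0.999 and 0.993 between Ms4a1 and Cd79a, and 0.96 and 0.91 between Ms4a1 and Cd79b.

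The co-receptors of the B cell did not follow as closely. Cd22, an inhibitory lectin that binds sialic acid, was 6.09, 6.20 and 5.81 in B6 and 5.86, 6.12 and 6.28 in B6-ChrYSJL. Its order in B6-ChrYSJL was that of the receptor chains, with replicate 3 on top, but B6 replicate 2 came next and the strains overlapped widely. The difference of 0.06 (standard error 0.13, adjusted p = 0.908) turned to −0.056 without B6 replicate 3 and to −0.042 without B6-ChrYSJL replicate 3.

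Cr2, which also marks follicular dendritic cells, was 5.24, 5.27 and 5.06 in B6 and 4.87, 5.22 and 5.22 in B6-ChrYSJL, below background throughout. The difference was −0.09 (standard error 0.11, adjusted p = 0.808) and 0.027 without B6-ChrYSJL replicate 1, the pool with the lowest value. Of 4 genes of follicular dendritic cells, Cxcl13, Madcam1, Mfge8 and Clu, none had an unadjusted p under 0.05 in limma, and the mean level of the 4 was 6.40 to 6.48 in the B6 pools and 6.35 to 6.54 in the B6-ChrYSJL pools. Mfge8 and Clu averaged above background, and Cxcl13 and Madcam1 below it.

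Cd72, an inhibitory receptor, was 8.41, 8.41 and 8.33 in B6 and 8.19, 8.28 and 8.06 in B6-ChrYSJL, more than 2 log2 units above the background level. All B6-ChrYSJL pools lay below all B6 pools, with a gap of 0.05 between the nearest of them, and the lowest value was that of B6-ChrYSJL replicate 3, in which Ms4a1, Cd79a and Cd79b were highest. The difference was −0.20 (standard error 0.08, 95% interval −0.38 to −0.03, unadjusted p = 0.0267 and adjusted p = 0.421 in limma). With 1 pool left out it stayed between −0.26 and −0.15, the latter without B6-ChrYSJL replicate 3.

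Over the 6 pools, Cd72 had an r above 0 with 1 of the 8 other members (Cr2), with a median of −0.56, while 22 of the 28 pairs among those 8 were above 0, with a median of 0.44. Between Cd72 and Ms4a1 r was −0.84 (exact permutation p = 0.0403, rho −0.71, exact permutation p = 0.136, adjusted 0.290 and 0.485), and −0.46 without the 2 pools farthest from the median of Ms4a1. Markers of CD8 T cells were lower in the same direction as Cd72. Cd8a was 6.77, 6.93 and 7.11 in B6 and 6.63, 6.34 and 6.22 in B6-ChrYSJL, and Cd8b1 was 8.06, 8.21 and 8.12 against 7.70, 8.01 and 7.84. For both genes every B6-ChrYSJL pool lay below every B6 pool, which held for 9.42% of all tested probe sets. The adjusted p from limma was 0.277 for Cd8a and 0.376 for Cd8b1. The mean level of these 2 genes was 7.42 to 7.62 in B6 and 7.03 to 7.18 in B6-ChrYSJL, and their part in the Cd72 difference was not tested.

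Of the lineage factors, Pax5 had an SD of 0.09 over the B6 pools and 0.06 over the B6-ChrYSJL pools, and Ebf1 of 0.13 in each (n = 3 pools). Pax5 was 6.25, 6.18 and 6.37 in B6 and 6.48, 6.36 and 6.44 in B6-ChrYSJL, with the lowest B6-ChrYSJL pool just under the highest B6 pool. Its difference was 0.16 (standard error 0.07, 95% interval −0.01 to 0.33, unadjusted p = 0.0611 and adjusted p = 0.488 in limma), and it stayed between 0.12 and 0.21 with 1 pool left out. Pax5 was highest in B6-ChrYSJL replicate 1, the pool with the lowest Cd79a.

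Ebf1 was 5.17, 4.95 and 5.18 in B6 and 5.25, 5.51 and 5.31 in B6-ChrYSJL, below background on each array. Every B6-ChrYSJL pool exceeded every B6 pool, with a gap of 0.07, and the difference was 0.25 (standard error 0.10, 95% interval 0.04 to 0.47, unadjusted p = 0.0275 and adjusted p = 0.423 in limma). It was 0.18 without B6-ChrYSJL replicate 2, the pool with the highest value. Stromal and fat precursor cells also use Ebf1. Of 10 lymph node stromal genes measured, none passed an FDR of 0.05 in limma, and 4 were higher and none lower at an unadjusted p under 0.05, beside 4.69% and 5.92% of all tested probe sets, namely Pdpn (0.20), Col1a2 (0.18), Col3a1 (0.18) and Pdgfra (0.25, below background), with adjusted p-values of 0.392, 0.419, 0.432 and 0.449. The median difference of the 10 was 0.05, and Ccl19 (−0.015 in its brightest probe set) and Pecam1 (−0.025) were below 0. The other probe sets of Ccl19 were above 0, at 0.03 to 0.05. The mean level of the 10 was 6.48 to 6.52 in the B6 pools and 6.58 to 6.64 in the B6-ChrYSJL pools; their part in the Ebf1 difference was not tested.

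Blk, the Src family kinase of the receptor, had the narrowest range of the 9, 0.16 over 6 pools. It was 5.89, 5.95 and 6.05 in B6 and 5.98, 6.03 and 6.00 in B6-ChrYSJL, at the background level in both, and the difference was 0.04 (standard error 0.07, 95% interval −0.12 to 0.20, adjusted p = 0.869 in limma).

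**Figure D2:**
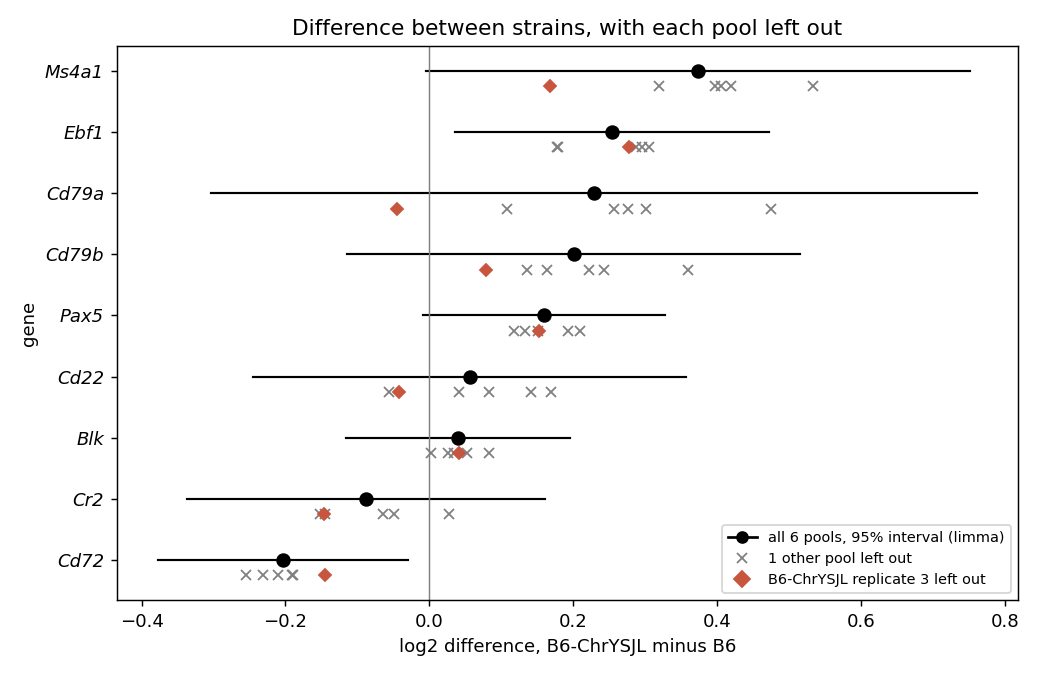
Log2 difference between strains, B6-ChrYSJL minus B6 (horizontal axis), for each of the 9 genes (vertical axis), as black points with limma's 95% interval, and below each the same difference with 1 pool left out, as crosses or, for B6-ChrYSJL replicate 3, as red diamonds. Without that pool Ms4a1 moves from 0.37 to 0.17 and Cd79a from 0.23 to −0.045, while Pax5 and Ebf1 stay above 0 and Cd72 below 0 in every case.

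As a group the 9 genes, each centred on its own mean, averaged −0.10, −0.03 and −0.05 in the B6 pools and −0.13, 0.09 and 0.21 in the B6-ChrYSJL pools. The lowest and the highest pool thus both belonged to B6-ChrYSJL. B6-ChrYSJL replicate 3 held the highest value for 4 of 9 genes, beside 15.6% of all tested probe sets. Without that pool the differences of the genes not so given above were 0.15 for Pax5, 0.28 for Ebf1, −0.15 for Cr2 and 0.042 for Blk.

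Of the class II genes, by which B cells and other antigen-presenting cells show peptides to T helper cells, 8 were measured, of which H2-Aa, Cd74, H2-Eb1 and H2-DMa were highest in B6-ChrYSJL replicate 3 and H2-Aa, Cd74, H2-DMa and H2-Oa lowest in B6-ChrYSJL replicate 1, beside 15.6% and 15.7% of all tested probe sets. H2-Ob and Ciita had the reverse order in B6-ChrYSJL, with 8.48 and 6.18 in replicate 1 and 8.29 and 5.97 in replicate 3. H2-Aa was 7.18, 7.50 and 7.47 in B6 and 7.01, 8.11 and 8.20 in B6-ChrYSJL, and Cd74, the invariant chain, was 8.17, 8.07 and 8.16 against 7.68, 8.39 and 8.51, so that for both B6-ChrYSJL replicates 2 and 3 lay above all other pools. Of the 8 genes, H2-Ab1 (0.64) and H2-Eb1 (0.37) were higher at an unadjusted p under 0.05 in limma (adjusted p = 0.398 and 0.393). None was lower at that mark, beside 4.69% of all tested probe sets higher and 5.92% lower. Among the 13490 other probe sets above background with 1 gene symbol, H2-Aa was at rank 5 by likeness to the pool means of the 9 genes (r = 0.97 over 6 pools), after Lrrc29 (0.98), Gpihbp1 (0.97), Zfp944 (0.97) and Atp9a (0.97) and before Rpa3, Nr3c1, Gpalpp1, Rbks and Megf6 (0.96 each). When deviations from each strain's own mean were used, H2-Eb1 was at rank 7 (r = 0.989), after Trp53inp2, Bcl2a1c, Fbxo8, Cenpq, Zfp180 and Tnks1bp1 (0.989 to 0.996) and before Pfkp, Slc39a8 and Fam91a1. These are descriptions over 6 pools, taken as the closest among all those probe sets, and among the first 10 of either ranking the range over the pools was widest for H2-Aa (1.19) and H2-Eb1 (0.67).

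**Figure D3:**
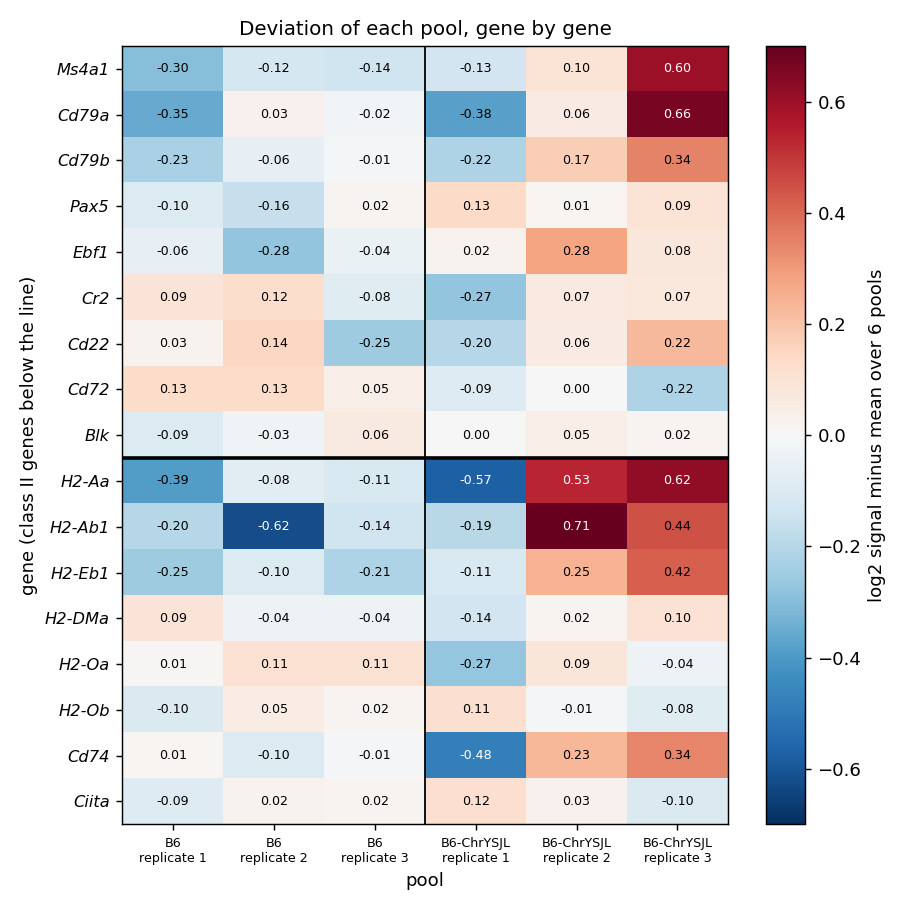
Log2 signal of each pool minus the gene's mean over the 6 pools (colour and printed value), for the 9 B cell genes above the black line and 8 class II genes below it (rows), with B6 pools left and B6-ChrYSJL pools right (columns). Ms4a1, Cd79a, Cd79b, H2-Aa, H2-Eb1 and Cd74 are red in B6-ChrYSJL replicates 2 and 3 and blue in replicate 1. The same signs hold for H2-Ab1, Cd22, Cr2, H2-DMa and, faintly, Blk, whereas Cd72 is blue in replicate 3 and Pax5 spans 0.29.

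Other genes of the B lineage were described in the same way. Of 41 further genes in 4 lists (surface proteins, receptor signalling, transcription regulators and immunoglobulin) 35 were measured here by a probe set of their own; none passed an FDR of 0.05, 3 were higher and 2 lower at an unadjusted p under 0.05, beside 4.69% and 5.92% of all tested probe sets, and the median difference was 0.04. B6-ChrYSJL replicate 3 held the highest value for 10 of the 35, beside 15.6% of all tested probe sets. Among these were Tnfrsf13c, the receptor for the survival factor BAFF (7.51, 7.52 and 7.52 in B6 against 7.43, 7.49 and 7.72), the adaptor Bank1 (5.68, 5.61 and 6.01 against 5.47, 5.88 and 6.05) and the transcription factor Bcl11a (6.22, 6.18 and 6.35 against 6.17, 6.29 and 6.54). In each of these the other B6-ChrYSJL pools lay within or below the B6 pools. The low-affinity IgE receptor Fcer2a was 5.37, 5.72 and 5.70 in B6 and 5.48, 6.08 and 6.03 in B6-ChrYSJL, below background in the mean, with replicates 2 and 3 again above all B6 pools.

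The surface genes with an unadjusted p under 0.05 in limma did not share a direction. Cd180, a relative of Toll-like receptors, was at 0.41 and below background, Fcrla, an Fc receptor-like protein of B cells, at 0.26, and Fcrl1, another of that family, at −0.30 (adjusted p = 0.338, 0.400 and 0.254). Of the signalling genes Pik3ap1, an adaptor for phosphoinositide 3-kinase, was at 0.19, and of the regulators Pou2f2, the octamer-binding factor, was at −0.26 (adjusted p = 0.437 and 0.306 in limma). Ighm, the heavy chain of IgM that naive B cells carry, was 6.93, 6.66 and 6.78 in B6 and 6.77, 6.84 and 6.87 in B6-ChrYSJL in its brightest probe set, so that the strains overlapped (0.04, standard error 0.08); its other probe sets differed by 0.03 and 0.05.

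**Figure D4:**
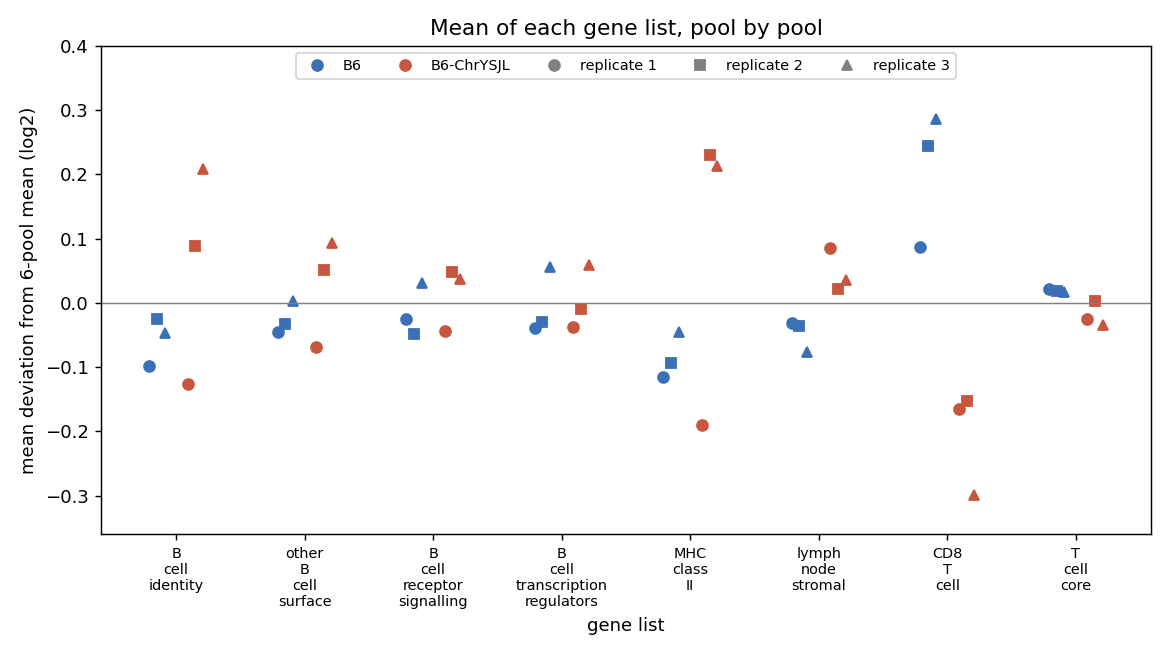
Mean over the genes of each list (horizontal axis) of the log2 signal minus the gene's mean over 6 pools (vertical axis), with 1 symbol per pool, B6 blue and B6-ChrYSJL red, and circles, squares and triangles for replicates 1, 2 and 3. The B cell identity genes range from −0.13 to 0.21 among the B6-ChrYSJL pools, class II genes from −0.19 to 0.23, and T cell core genes from −0.04 to 0.003. The pools of the CD8, stromal and T cell core lists do not overlap between the strains.

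Of the 12 core T cell genes measured, none had an unadjusted p under 0.05 in limma. Of these genes 6 were lower in every B6-ChrYSJL pool than in every B6 pool and 1 was higher, beside 9.42% and 7.68% of all tested probe sets. The mean level of the 12 was 11.48 to 11.49 in the B6 pools and 11.43 to 11.47 in the B6-ChrYSJL pools. Follicular helper T cells, the T cells that meet B cells in follicles, were followed by 7 genes. Of these, Pdcd1 (−0.26) and Icos (−0.20) were lower, each with its unadjusted p below 0.05 (adjusted p = 0.379 and 0.400, limma). None was higher by that mark, which 5.92% of all tested probe sets reached in the lower and 4.69% in the higher direction. Sh2d1a (0.17) and Cd40lg (0.015) lay above 0, so the list did not share 1 direction. The mean level of the 7 genes was 8.14 to 8.18 in B6 and 7.97 to 8.12 in B6-ChrYSJL. None of 10 myeloid genes had an unadjusted p under 0.05, with mean levels of 5.80 to 5.91 in B6 and 5.82 to 5.86 in B6-ChrYSJL. Only 3 of the 10 averaged above background.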

How the data were processed

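RNA of CD4+TCRβ+ lymph node cells was measured in 6 pools, 3 of B6 and 3 of B6-ChrYSJL. For each array 50 ng was amplified and labelled. The authors deposited 1 log2 value per probe set and array, made in Partek by RMA (background correction, quantile normalization and median polish); GCOS and mm9 stand in the submitters' notes as well. RMA gives the probe intensities of all arrays 1 distribution before they are summarized, so a shift of all transcripts would not be seen. The deposited values still differed slightly between arrays, with upper quartiles of 8.13 to 8.19. The log2 values were taken as deposited. Precision is limited by the number of arrays and by signal over background. The p-values from limma set the strain difference against the spread between pools, moderated over all tested probe sets.

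The platform annotation gave 1 symbol for 21789 probe sets, several for 1621 and none for 12146. On the 23410 with a symbol, lmFit and eBayes (limma 3.58.1, R 4.3.3) estimated B6-ChrYSJL minus B6, adjusted by Benjamini-Hochberg; adjusted p-values of genes in the text are from limma unless a permutation is named. The median standard error was 0.08. With 3 pools against 3 an exact permutation test of 1 gene cannot go below 0.1. The members and gene lists were chosen with earlier results of these data known, so lists are described by counts and medians without a test. The brightest probe set stood for a gene with several. Named were all members, list genes at an unadjusted p under 0.05 and the 10 probe sets most like the member mean by each measure. Tnfrsf13c, Bank1, Bcl11a, Fcer2a, H2-Aa, H2-DMa, H2-Oa, H2-Ob, Cd74, Ciita, Ccl19, Pecam1, Sdc1, Mzb1, Sh2d1a and Cd40lg were also named after their values were seen. Lyn, Ighd and Iglc2 were not analysed here. Tried as alternatives were variance models, array weights, filters, probe set averages, normalizations, a block for replicate numbers and the omission of each pool. The fit was tested on simulated data. Python 3.11.15 with matplotlib 3.10.9 drew the figures.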

Additional observations from a re-analysis of the deposited data

How the results depend on the processing

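No member passed an FDR of 0.05 under any of the 16 alternatives, the smallest adjusted p being 0.282 (Cd72, only probe sets above background), while the count over all probe sets was 4 in the reported fit and ranged from 0 (all deposited probe sets, among others) to 55 (variance trend). The median difference of the members was 0.16, and with 1 pool left out it lay between 0.04 and 0.21. Signs turned only with a pool left out: with 1 pool left out Cd79a lay between −0.045 (without B6-ChrYSJL replicate 3) and 0.475, Cd22 between −0.056 (without B6 replicate 3; −0.042 without B6-ChrYSJL replicate 3) and 0.169, and Cr2 between −0.152 and 0.027 (without B6-ChrYSJL replicate 1). The number of members higher at an unadjusted p under 0.05, 1 as reported, was 2 with the variance trend, array weights, probe sets averaged by gene or without B6 replicate 3, 4 without B6-ChrYSJL replicate 1, and 0 with the unmoderated linear model of the methods, repeated quantile normalization or without B6 replicate 2. The number lower, 1 as reported, was 0 with repeated quantile normalization and without B6 replicates 1 or 2 or B6-ChrYSJL replicates 1 or 3. The mean of the members in each pool moved by less than 1 SD under each normalization and filter tried. The number of members above background was 6 with the 90th percentile of receptor probe sets, as reported with the 95th, and 2 with the 99th. Over all tested probe sets, deviations of same-numbered pools correlated at −0.0001, −0.04 and −0.02, which cannot settle whether replicate numbers pair the pools for single genes. Replicate 1 was the lowest pool of each strain for Cd79a, Cd79b and Ms4a1, though not for every member. With the replicate number as a block, unadjusted p in limma was 0.0188 for Ms4a1, 0.0618 for Cd79b and 0.152 for Cd79a. Without the block it was 0.052, 0.181 and 0.353, and for every other member it was higher with the block. The smallest adjusted p of a member with the block was 0.482 (Ms4a1), and the median difference was 0.16. Of the medians of the other lists, 154 moved by less than 1 SD under these alternatives and 16 by more.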

Other observations

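Genes of other stages of the B lineage were also measured, with no test of these lists against the members. Of 7 plasma cell genes, Prdm1, the repressor that drives plasma cell and effector T cell differentiation, was at −0.30, from 6.88 ± 0.21 (SD, n = 3 pools) in B6 to 6.57 ± 0.04 in B6-ChrYSJL (adjusted p = 0.398 from limma), and Irf4, which acts in both lineages, was at −0.20 (adjusted p = 0.437). These 2 were lower at an unadjusted p under 0.05 and none was higher, beside 5.92% and 4.69% of all tested probe sets. Sdc1, the plasma cell surface proteoglycan, was at 0.13 with no overlap between strains but below background, and Mzb1, a chaperone of antibody assembly, was at 0.22, both highest in B6-ChrYSJL replicate 3 (adjusted p = 0.51 and 0.532 from limma). Of the 7 genes, 1 (Sdc1) lay higher and 2 (Prdm1 and Irf4) lower without overlap, beside 7.68% and 9.42% of all tested probe sets. Of 5 genes of early B and T precursors, 1 was lower at an unadjusted p under 0.05 and also without overlap, beside 5.92% and 9.42% of all tested probe sets. This was Dntt, the polymerase that adds bases at receptor junctions (−0.32, adjusted p = 0.267). It was 7.67, 7.65 and 7.79 in B6 and 7.43, 7.42 and 7.30 in B6-ChrYSJL. None of 4 germinal centre genes had an unadjusted p under 0.05 in limma, and their centred mean was −0.11 to −0.0085 in the B6 pools and 0.009 to 0.086 in the B6-ChrYSJL pools. Only S1pr2, with the largest difference (0.27), averaged above background. Rgs13 (0.10), Gcsam (0.06) and Mybl1 (−0.02) were below it. Among genes of dendritic cells, which also carry class II molecules, Itgax was at 0.17 and Xcr1 at −0.29, both below background. Of 9 natural killer cell genes, 4 averaged above background. Only Gzmb (−0.16), below background, had an unadjusted p under 0.05 in limma (adjusted p = 0.449). The difference was above 0 for 1 of the 9, beside 48.9% of all tested probe sets, and its median was −0.14. Their centred mean was 0.033 to 0.055 in the B6 pools and −0.074 to −0.001 in the B6-ChrYSJL pools.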
